A study of Mus musculus with 29 samples.

Results

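Mg3 is a subtype of mouse brain microglia in the authors' deposited annotation of a single-cell study of stroke. Its members are the brain cells whose coarser code is Mg, for microglia, and whose finer code is Mg3. They number 5118 of the 24707 microglia and of the 55268 brain cells in 18 libraries. The other microglial codes hold 8519 cells (Mg1), 5567 (Mg2), 1822 (Mg4), 1420 (Mg5), 1394 (Mg6), 344 (Mg7) and 523 (Mg8). The genes given as marks of Mg3 are Spp1, Gpnmb and Apoe. The annotation was made from the same expression values, so differences between Mg3 and other subtypes are given as a description, with no test, apart from the difference in their change over time, whose p-values carry the same limit.

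All mice were C57BL/6J, and transcripts were counted by Drop-seq, in which droplets pair each cell with a barcoded bead. For stroke the middle cerebral artery was blocked for a time and reopened, and controls had a sham operation. Each library pooled 4 to 5 hemispheres, digested with papain in the presence of Brilliant Blue G, actinomycin D and AP-5 and sorted for leukocytes with high CD45, microglia and endothelial cells. The young mice were males 8 to 10 weeks old, with 4 libraries each from sham (taken at day 2), from day 2 after stroke and from day 14 after stroke. The aged mice were 17 to 20 months old, with 1 male and 1 female sham library (day 2). After stroke they had 1 male and 2 female libraries of day 2, and for day 14 a single female library. Sham was taken at day 2 only, so a difference between stroke at day 14 and sham joins injury with time after surgery. The aged libraries also differ from the young ones in sex and in the deposited gene table, which lists 27514 genes in place of 19704.

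Microglia are the resident macrophages of the brain. In health they express sensors such as P2ry12 and Tmem119, and around damaged or demyelinated tissue they can take up lipid-rich debris, lower those sensors and raise genes such as Apoe, Spp1, Cst7, Clec7a and Igf1. A separate response follows type I interferon, whose receptor signals to the nucleus and switches on Ifit, Isg15, Mx and Oas genes, known for their antiviral roles.

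Mg3 was rare in sham brains and at day 2 and was the commonest microglial subtype at day 14. In the 4 young sham libraries 17 of 2388, 40 of 3293, 6 of 2093 and 30 of 3100 microglia were Mg3, a mean share of 0.795% ± 0.396 (SD, n = 4). In the 4 young stroke libraries at day 2 the counts were 20 of 618, 40 of 693, 0 of 58 and 73 of 1324, a mean share of 3.63% ± 2.68 (SD, n = 4). The library with no Mg3 cell had only 58 microglia, which allows a share of up to 5.17%, and without it the mean was 4.84%. At day 14 the counts were 625 of 904, 731 of 957, 502 of 684 and 1557 of 2625, with shares of 69.1%, 76.4%, 73.4% and 59.3% and a mean of 69.6% ± 7.45 (SD, n = 4). The lowest share at day 14 lay far above the highest at day 2, 5.77%, and the sham and day 2 shares overlapped only through the day 2 library with no Mg3 cell. Mg3 was chosen for its share at day 14, so these shares are a description.

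The remaining microglia also differed by group. Sham microglia were mostly Mg1 (mean share 53.0%) and Mg2 (37.8%), day 2 microglia mostly Mg4 (52.0%) and Mg5 (26.4%), and the day 14 microglia outside Mg3 mostly Mg6 (9.31%), Mg1 (6.18%), Mg7 (5.97%) and Mg2 (4.90%). Among all sorted cells Mg3 made up a mean of 24.4% at day 14, a share that also depends on the sort.

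In aged mice Mg3 was already present at a few percent without stroke. For 2 aged libraries, the male sham and the day 2 female replicate 2, the deposited metadata give a mix of sorted cells in place of the condition, so their group rests on the sample titles alone. The 2 aged sham libraries held 17 of 329 and 144 of 2385 microglia as Mg3, shares of 5.17% and 6.04%. Both were above the highest young sham share, 1.21%. The 3 aged stroke libraries at day 2 held 41 of 326, 118 of 956 and 15 of 170, shares of 12.6%, 12.3% and 8.82%. All 3 were above the highest young share at that time, and the mean was 11.2% ± 2.10 (SD, n = 3). Among cells with at least 800 counts the aged day 2 mean was 7.28%, the same as the aged sham mean of 7.28% in that subset, so the means did not differ in that subset. The aged day 2 shares there were 8.94%, 8.77% and 4.12%, and the young ones 1.95%, 5.56%, 0% and 4.92%, so the 2 ages overlapped. The aged day 14 library held 1142 of 1804, or 63.3% (exact 95% binomial interval 61.0% to 65.5%), inside the range of the young day 14 libraries. Intervals and upper limits cover counting error only.

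**Figure D1:**
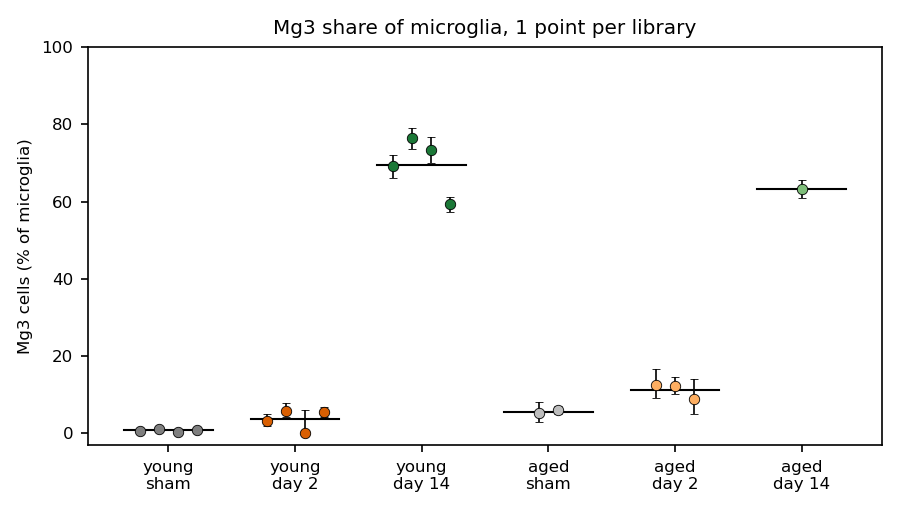
Share of microglia that carry the code Mg3, in percent, for each of the 18 brain libraries, by age and condition. The 4 young libraries at day 14 sit between 59.3% and 76.4% and the aged one at 63.3%, and all others are at 12.6% or below.

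Depth set what could be compared. Mg3 cells had median counts of 256 to 2009 per cell and library among those with at least 20 Mg3 cells, and their summed counts ran from 14358 (a young sham library) to 1332117 (a young day 14 library). Expression was compared in the 13 libraries with at least 20 Mg3 cells, which leaves 2 young sham, 3 young day 2, 4 young day 14, 1 aged sham, 2 aged day 2 and 1 aged day 14 library. The low depth of the sham and day 2 sums means that a gene at 0 there was not detectable at that depth. The day 2 library with no Mg3 cell stood apart also in its other microglia, with a median of 338 counts and 2204.5 genes per cell, and it enters none of the expression results. Libraries fell into 2 sets by the median mitochondrial share of their cells, 5 young libraries under 1% and the other 13 between 1.11% and 3.68%, and each young group had libraries of both sets. Among libraries with at least 20 Mg3 cells, the young day 2 and day 14 ones still came from both sets. The 2 young sham ones were in the higher set only (3.11% and 2.93%), so comparisons with sham are not balanced for the set. Pairs of libraries shared at most 3 cell barcodes, or 0.113% of the cells of the smaller library.

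Of the 3 genes given as marks, only Apoe was higher in Mg3 than in the other microglia of the same library in all 13 libraries. Apoe, the main lipid-carrying apolipoprotein of the brain, stood at 54820, 57400, 77660 and 44210 CPM (counts scaled to a common total for each library and cell class) in Mg3 at day 14. In the other microglia of those libraries it stood at 47840, 43920, 61890 and 18440 CPM. The ratios, as log2 of CPM plus 10, were 0.20, 0.39, 0.33 and 1.26, and the median over all 13 libraries was 1.73. Spp1, the secreted matrix protein osteopontin, was higher in Mg3 in 7 of 13 libraries and lower in 6, with a median log2 ratio of 0.27. It was far above the other microglia in sham (153 against 1.70 CPM and 189 against 1.51 CPM) and below them in 2 of the 3 young day 2 libraries (2174 against 8825 CPM and 3464 against 17700 CPM). The Mg3 sums of the sham libraries were only 21287 and 14358 counts, so the sham levels of Spp1 rest on few counts. Gpnmb, a lysosomal membrane glycoprotein of lipid-laden macrophages, was at 0 in Mg3 of both sham libraries and at 140, 157, 242 and 130 CPM at day 14. Its ratio to the other microglia was above 0 in 5 of 13 libraries. The label's marks therefore fit Mg3 for Apoe in every library and for Spp1 and Gpnmb only in some.

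The genes highest in Mg3 relative to the other microglia included many of the list of interferon-response genes. Among 3592 genes at 50 CPM or more on the higher side, 49 had the same sign in all 13 libraries, 26 higher and 23 lower in Mg3, around a median log2 ratio of -0.10 over those 3592 genes. Among those 26, the highest median log2 ratios belonged to Ifit2 (2.41), Mx1 (2.31) and Ifit3 (2.25), which encode antiviral effector proteins, then Apoe (1.73), Ifi209 (1.69), Isg15 (1.63), a ubiquitin-like modifier, and Ifi204 (1.42). Bst2 (1.15), a tetherin of viral particles, and Irf7 (1.02), a transcription factor that amplifies interferon production, were also among them. B2m (0.75) and H2-D1 (0.70), parts of the class I complex that presents peptides to T cells, were also higher in every library. Of the 12 listed interferon-response genes, 8 were higher in Mg3 in all 13 libraries and all 12 in the 4 young day 14 libraries, where 291 of the 3592 genes were. The list's median log2 ratio was 2.01 in sham, 2.33 at day 2 and 0.83 at day 14, so the contrast with other microglia was smaller in the group where Mg3 was common. The sham value rests on the small Mg3 sums given above.

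Several listed genes of cell division were lower in Mg3 than in the pooled other microglia. Of 12 listed proliferation genes 6 were lower in all 13 libraries, among them Mki67, Top2a and Cenpf, and the list's median log2 ratio was -1.27. Cenpf, a kinetochore protein, had the lowest median ratio of the genes named by rule, -1.33, at a mean of 4.01 CPM in Mg3 and 54.1 CPM in the others. With 1 added to CPM in place of 10 it was -2.92. By subtype at day 14, Cenpf was 1.54 to 8.45 CPM in Mg3 and 102 to 526 CPM in Mg5 (2 libraries), but it was 0 in Mg1 (3 libraries) and lower in Mg7 than in Mg3 in 3 of 4. The low level of Cenpf was therefore shared with Mg1 and Mg7. Summed over the proliferation list, Mg3 held 0 to 32.9 CPM in sham, 226 to 425 CPM at day 2 and 48.9 to 84.2 CPM at day 14. No listed homeostatic gene was lower or higher in all 13 libraries, but 10 of 14 were lower in Mg3 in each of the 4 young day 14 libraries, where 626 of the 3592 genes were. P2ry12, a nucleotide receptor, stood at 581, 649, 929 and 941 CPM in Mg3 there. Beyond those lists, Lamp1 of the lysosome and Npc2, which moves cholesterol out of it, were higher in all 13 libraries, by medians of 0.32 and 0.46. Each was the only 1 of the 14 genes on its list, lysosome and lipid handling, to be so. In the young day 14 libraries the median log2 ratios of these lists were 0.06 and 0.20. Of the lysosomal genes 3 were higher and 2 lower in all 4 of those libraries, and of the lipid genes 3 and 0.

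**Figure D2:**
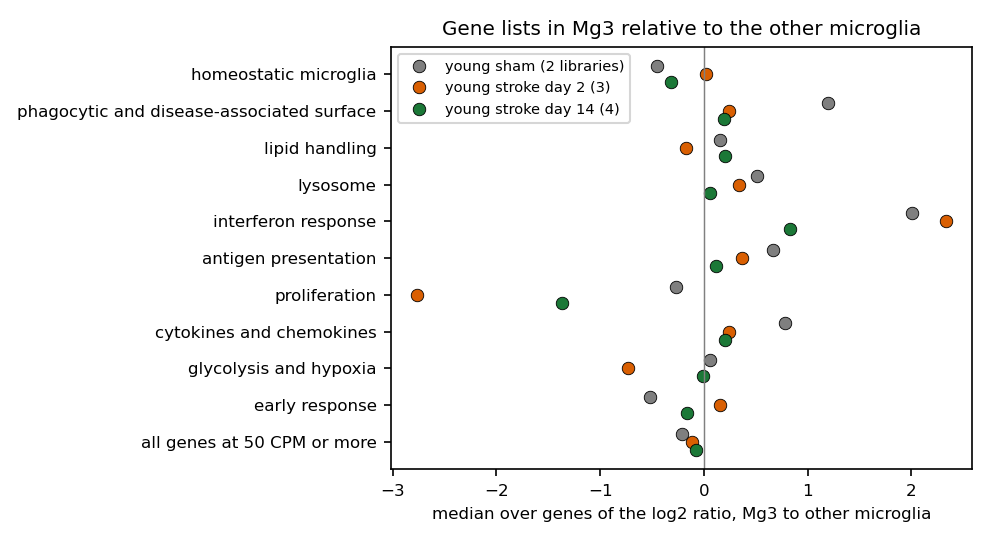
Median over the genes of each list of the log2 ratio of Mg3 to the other microglia of the same library, for young sham (2 libraries), day 2 (3) and day 14 (4). The interferon-response list lies at 2.01, 2.33 and 0.83 and the proliferation list at -0.27, -2.76 and -1.37.

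The sorted Mg3 cells carried microglial genes and little of the defining genes of other classes. The 14 homeostatic genes summed to 18930 to 24190 CPM in Mg3 at day 14 in young mice. The monocyte-derived list summed to 2700 to 3447 CPM there, against 27570 to 57870 CPM in the cells coded MdC. Most of that sum was Lyz2, a lysozyme that activated microglia also express (3038, 3289, 3057 and 2657 CPM), while the monocyte markers Ccr2 and Ly6c2 were at 10.1, 5.25, 0.688 and 0 CPM and at 33.0, 16.0, 1.78 and 0 CPM. Over the 13 libraries of both ages, Fn1 of that list averaged 41.7 CPM in Mg3 and Ms4a4c 22.3 CPM. Plac8, S100a4, F13a1, Chil3 and Arg1 averaged at most 6.04 CPM. The border macrophage list summed to 65.97 to 94.98 CPM in Mg3, against 5724 to 11900 CPM in the cells coded BAM, and the endothelial list to 0 to 64.9 CPM, against 21260 to 26670 CPM in the cells coded EC. Neutrophil genes summed to 117 to 233 CPM, oligodendrocyte genes to 38.7 to 62.8 CPM and T, NK and B cell genes to 6.45 to 56.6 CPM, and astrocyte and neuron genes stayed at or below 2.63 CPM.

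Other subtypes were compared with Mg3 one by one in the young libraries at day 14, and mainly Mg1 and Mg7 are described here. Mg2 and Mg4 could be compared in only 1 library each. Bst2, higher in Mg3 than in the pooled other microglia, was not higher than in Mg4 (0 of 1 library) or Mg5 (0 of 2). It was higher than in Mg1, Mg2, Mg6 and Mg7 in every library compared. Against Mg1, the main sham subtype, in the 3 young day 14 libraries with at least 20 cells of each, Igf1, a growth factor, averaged 514 against 34.2 CPM, Spp1 7787 against 277 CPM and Ifit3 165 against 11.6 CPM. Apoe in Mg1 was 5269 to 18990 CPM, below Mg3 in all 3. The genes lowest in Mg3 against Mg1 included Serpinf1, Upk1b, Plxna4 and Slc2a5, a fructose transporter of resting microglia (43.8 against 271 CPM).

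The 3 marks did not separate Mg3 from Mg7. In the 4 young day 14 libraries Apoe was higher in Mg3 than in Mg7 in 2, Gpnmb in 2 and Spp1 in 1. Of other genes, Cst7, a cystatin that inhibits lysosomal proteases, was higher in Mg3 in 1 of 4, Igf1 and Fabp5 in 1 each, Lpl in 2, Itgax in 0, and Clec7a, Baiap2l2 and Cxcl13 in 3 each. Spp1 ranged from 616 to 30230 CPM in Mg7 and from 4082 to 13970 CPM in Mg3. Some genes were higher in Mg3 than in Mg7 in all 4 libraries, and others were lower in all 4. With 4 libraries some genes keep 1 direction by chance, so the leading ones are a description, with no test. The lower ones were led by Rbm34 (median log2 ratio -1.1) and Tbc1d10a (-0.91). The higher ones were led by Ifi206 (median log2 ratio 1.99), Cxcl10, a chemokine for T cells (1.83, a mean of 296.5 against 78.5 CPM), Ccl12 (1.64), Rsad2 (1.45), Ifit2 (1.40), Fgfr1op, a centrosomal protein (1.36), and Ifit3 (1.22). Ifit3 was also higher than in Mg6 in 2 of 2 libraries. Mg5 did not stand apart in this way: Ifit3 was higher in Mg3 in 1 of 2 libraries and Cst7 in 0 of 2.

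**Figure D3:**
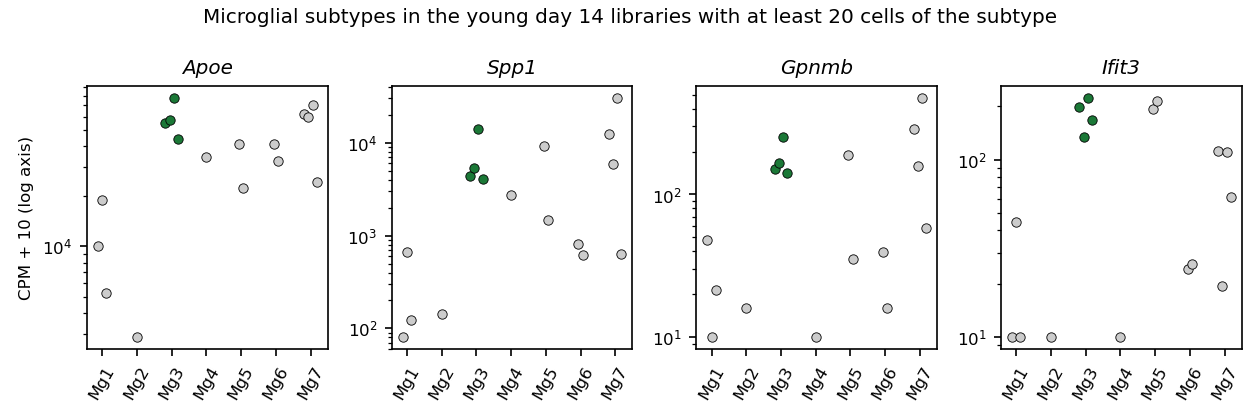
Level of Apoe, Spp1, Gpnmb and Ifit3 in each microglial subtype with at least 20 cells, by young day 14 library (CPM plus 10, log axis). Spp1 in Mg7 spans 616 to 30230 CPM and brackets Mg3, whereas Ifit3 in Mg3, 124 to 213 CPM, lies above Mg7 in each of the 4 libraries.

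The share of cells with a transcript was compared after each cell was thinned to 500 counts, which left 548, 391, 450 and 777 Mg3 cells in the 4 young day 14 libraries and left out 77, 340, 52 and 780 shallower ones. Apoe was found in 99.2% to 100.0% of Mg3 cells and in 84.1% to 97.7% of the other microglia. It was also found in 28.3% to 50.8% of endothelial cells, but at 3 or more counts in 96.4% to 98.7% of Mg3 and 0% to 1.59% of endothelial cells. Unthinned, Apoe was found in 99.3% to 100.0% of Mg3 cells. Cst7 was found in 48.8% to 54.2% of Mg3 cells (51.8% to 79.2% unthinned), in 20.0% to 49.6% of the other microglia and in no thinned endothelial cell. Spp1 was found in 31.0% to 59.6% (32.1% to 76.3% unthinned) and Gpnmb in 5.66% to 8.67% (5.72% to 22.9% unthinned), against at most 0.518% and 1.79% of endothelial cells. In the other microglia Spp1 was found in 12.5% to 54.0% and Gpnmb in 0.29% to 8.76%, and for Gpnmb replicate 3 had 8.76% there against 8.67% in Mg3. Ifit3 was found in 3.32% to 8.39% of Mg3 cells (7.25% to 20.5% unthinned), 0% to 5.11% of the other microglia and 4.05% to 6.75% of endothelial cells. Within libraries Mg3 was above endothelial cells in 3 of 4 (8.39% against 6.75%, 8.22% against 5.18% and 6.18% against 5.36%) and below in 1 (3.32% against 4.05%). Over the 12 interferon-response genes together, 3 or more counts were found in 16.6% to 27.1% of Mg3 cells at day 14 and in 4.35% to 13.9% of the other microglia, but also in 12.5% to 31.6% of endothelial cells, above Mg3 in 3 of 4 libraries. In the 1 young day 2 library with enough cells, 60 Mg3 cells, the shares were 61.7% in Mg3, 6.49% in the other microglia and 32.8% in endothelial cells. Median depth differed between libraries and classes, which the thinning removes only for cells above 500 counts.

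The change within Mg3 from day 2 to day 14 was tested on counts summed per library. It asks whether the cells of that code differ between the acute and the later time. Cells were coded from the same expression values, and Mg3 was chosen for its share at day 14. The p-values within Mg3, here and in the later comparisons, are therefore not independent of the coding, above all for the 3 marks. The fit used edgeR's quasi-likelihood test with Benjamini-Hochberg adjustment, and genes with an adjusted p below 0.05 are referred to as called. Labels say that hemispheres were pooled for each experiment, so p-values measure the spread between pools. Of 3045 genes tested 16 were called, or 0.525%, with 13 higher and 3 lower at day 14. The genes that rose included Apoe, Apoc1 and Fabp3 of lipid handling, Clec7a, Cst7 and Igf1 of activated microglia, and the class I genes H2-D1, H2-K1, H2-Q6 and H2-Q7. Those that fell were Ifit3, Gbp7 and Phf11d. Without TMM scaling the split was 13 higher and 21 lower, and the median of all genes moved from 0.05 to -0.28. Without any 1 of the 3 day 2 libraries no gene was called by edgeR (610 to 811 genes at an unadjusted p under 0.05), and without day 14 replicate 1, 3 or 4 the count was 3, 5 or 3. DESeq2 called 66 genes, which included 13 of the 16. The monocyte-derived list summed to 478 to 2293 CPM in Mg3 at day 2, below the day 14 sums given above, and its part in these changes was not tested.

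Among genes of lipid handling, Apoe in Mg3 was 9198, 5961 and 1001 CPM at day 2 and 44210 to 77660 CPM at day 14. Every day 14 library lay above every day 2 library, and the log2 fold change was 3.90 ± 0.64 (SE, adjusted p = 0.0271). Apoe is 1 of the 3 marks, so its p-value is no independent support for the code. Apoc1, an apolipoprotein of the same cluster, was 0, 26.0 and 0 CPM at day 2 and 222, 310, 554.5 and 302 CPM at day 14, a log2 change of 6.00 ± 0.95 (adjusted p = 0.0271). Fabp3, a cytosolic fatty acid carrier, had no count at day 2 and 97.6, 84.2, 114 and 99.2 CPM at day 14, at least 5.44-fold higher against a floor of 3 counts over the group. Of the 14 listed lipid genes 10 were tested, 2 were called, both higher, and their median log2 change was 0.75, against 0.05 over all genes tested. Lpl, a lipase, was 631.5, 1026 and 284 CPM at day 2 and 524 to 1070 CPM at day 14, with a log2 change of 0.80 and an adjusted p of 0.58.

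Some surface and secreted genes of activated microglia were called too. Clec7a, the beta-glucan receptor Dectin-1, was 86.7, 110 and 121 CPM at day 2 and 1286, 934, 1219 and 2199 CPM at day 14, a log2 change of 3.90 ± 0.40 (adjusted p = 0.00499). Cst7 was 294, 344 and 348 CPM at day 2 and 2068, 1676, 2320 and 1770 CPM at day 14, a change of 2.91 ± 0.35 (adjusted p = 0.00768). The day 14 values were tightly grouped and lay well above all day 2 values. Igf1 was 104, 83.8 and 14.8 CPM at day 2 and 461, 336, 711 and 495 CPM at day 14, a change of 3.65 ± 0.53 (adjusted p = 0.0229). Fabp5, another fatty acid carrier, rose by 3.28 ± 0.51, and Baiap2l2, an actin-membrane adaptor, was at 0 in all 3 day 2 libraries and at 113 to 172 CPM at day 14, at least 7.59-fold higher. Of 14 listed surface and disease-associated genes, 13 were tested and 4 were called, all higher (Clec7a, Cst7, Fabp5 and Igf1), with a median log2 change of 0.83. Trem2, the lipid receptor, was 2378, 1950 and 2369 CPM at day 2 and 2614 to 3201 CPM at day 14, a change of 0.74 with an adjusted p of 0.292.

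Spp1 was 10100, 2174 and 3464 CPM at day 2 and 4335, 5310, 13970 and 4082 CPM at day 14. The groups overlapped, and the change of 0.87 ± 0.55 did not pass (adjusted p = 0.663). Gpnmb was 47.9, 0 and 0 CPM at day 2 and 130 to 242 CPM at day 14, and its change of 4.91 ± 0.93 did not pass either (adjusted p = 0.0659). With the mitochondrial set as a term, with the replicate number as a block, without a filter on low counts, or with libraries of at least 10 cells, Gpnmb was called.

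Of the class I genes, H2-D1 was 1541, 1717 and 1337 CPM at day 2 and 4934, 4778, 6489 and 6542 CPM at day 14, a log2 change of 2.26 ± 0.25 (adjusted p = 0.00499). H2-K1 rose by 1.77 ± 0.29, a call lost without TMM scaling or without the deepest cells, and H2-Q7 by 4.41 ± 0.78, and H2-Q6, with no count at day 2, was at least 6.77-fold higher. These genes are related in sequence, with H2-Q6 and H2-Q7 nearly identical. How reads shared between such genes were counted is not given in the sources used here. The separate values, above all of H2-Q6 and H2-Q7, are therefore uncertain. Of 10 antigen presentation genes 7 were tested and 2 were called, H2-D1 and H2-K1. B2m was 9956, 7507 and 7809 CPM at day 2 and 13510 to 16990 CPM at day 14, a change of 1.23 that did not pass (adjusted p = 0.108). Class II genes were sparse, and Cd74, the invariant chain, was 100, 316 and 21.6 CPM at day 2 and 345, 362, 3.01 and 0.000426 CPM at day 14. At each time the libraries with a mitochondrial share under 1% held the higher Cd74 values. Ccl6, a chemokine, rose by 1.98 ± 0.30 and was the only 1 of 14 tested cytokine and chemokine genes that was called.

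The 3 genes that fell were Ifit3, Gbp7 and Phf11d. Ifit3 was 827, 742 and 884 CPM at day 2 and 188, 124, 213 and 158 CPM at day 14, and fell by 1.90 ± 0.27 on the log2 scale (adjusted p = 0.0228). Gbp7, an interferon-induced GTPase, was 358, 431 and 91.5 CPM at day 2 and 24.9, 16.6, 28.0 and 12.4 CPM at day 14, and fell by 3.34 ± 0.56 (adjusted p = 0.0295). Phf11d fell by 1.34 ± 0.24 (adjusted p = 0.0484). All 3 lost the call without either sham library and when only the 2 groups compared were fitted, which kept 13 higher genes and no lower one. Ifit3 also lost it without the deepest 5% of microglia, and Ifit3 and Phf11d without a filter on low counts. The interferon-response list had 1 of 12 genes called, lower, with a median change of -0.47. Isg15 was 662, 568 and 1040 CPM at day 2 and 445, 213, 329 and 366 CPM at day 14, without overlap, and its change of -0.86 ± 0.34 did not pass (adjusted p = 0.396). Ifit2 was 974.5, 314 and 552 CPM and then 110 to 259 CPM, a change of -1.14 with an adjusted p of 0.323. Of 12 homeostatic genes tested by edgeR none was called (2 with an unadjusted p below 0.05, and DESeq2 called 1), and of 12 lysosomal genes none (7, and DESeq2 called 4). Over all 3045 genes 304 had such a p by edgeR, and DESeq2 called 66.

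**Figure D4:**
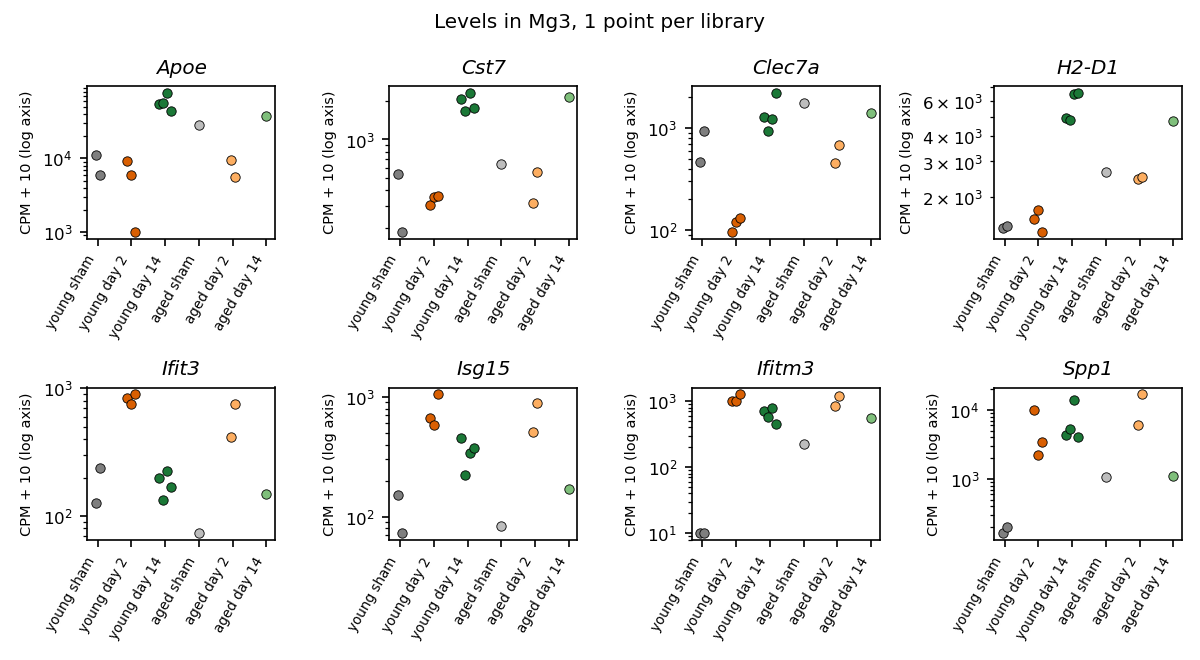
Level of 8 genes in Mg3 of each library with at least 20 Mg3 cells, by group (CPM plus 10, log axis). Apoe, Cst7, Clec7a and H2-D1 at young day 14 lie above all young day 2 libraries, Ifit3 lies below them, and Spp1 overlaps.

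Against sham, all 8 called genes were higher at day 14, of 3045 tested (0.263%). This comparison uses the same day 14 libraries as the one above and only 2 sham libraries of 40 and 30 Mg3 cells. Spp1 was 153 and 189 CPM in sham and rose by 5.87 ± 0.93 on the log2 scale (adjusted p = 0.0374). Ifitm3, a membrane protein that blocks virus entry, had no count in the sham libraries and 712, 560, 768 and 436 CPM at day 14 (adjusted p = 0.017). It was nearly absent in the other microglia of those sham libraries too. Ifi27l2a, another interferon target, rose by 4.49 ± 0.58 from 74.3 and 84.8 CPM, and Lgals3bp, a secreted galectin ligand, by 3.28 ± 0.45 (adjusted p = 0.017 for each). Timp2, a metalloprotease inhibitor (3.21 ± 0.45), Cst7 (2.88 ± 0.43), H2-D1 (2.50 ± 0.30) and Cops9 (3.20 ± 0.52) made up the rest. Apoe in sham, 11280 and 5949 CPM, was below every day 14 library, and its change of 3.27 ± 0.74 did not pass (adjusted p = 0.118), although it was called by DESeq2. Clec7a in sham was 457 and 920 CPM, above the day 2 values. Without TMM scaling 4 genes were called, and Spp1, Cst7, Timp2 and Cops9 were lost. With libraries of at least 10 Mg3 cells, or counts rounded up in each cell, Ifitm3 was not called (log2 changes of 1.95 and 2.1). Without either sham library or day 14 replicate 1 no gene was called by edgeR (247 to 615 at an unadjusted p under 0.05), and DESeq2 called 59 genes with all libraries.

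Between day 2 and sham 1 gene of 3045 was called, or 0.0328%. Ifitm3 was 993, 998 and 1255 CPM at day 2 and at 0 in both sham libraries (adjusted p = 0.0338). The other microglia of those sham libraries were near that level too, with a median log2 ratio of Mg3 to them of -0.039. The low sham level was therefore not particular to Mg3. The call was lost with libraries of at least 10 Mg3 cells (log2 change 2.47, adjusted p = 0.271) and with counts rounded up in each cell (2.59, adjusted p = 0.179). The interferon-response list had a median log2 change of 2.30, with 8 of 12 genes at an unadjusted p under 0.05, all higher, and 4 called by DESeq2. Over all 3045 genes 349 had such a p, and DESeq2 called 15. Summed over that list, Mg3 held 1936 and 1946 CPM in sham, 5218 to 7794 CPM at day 2 and 2651 to 3703 CPM at day 14. Isg15 was 141 and 62.5 CPM in sham, and its change to day 2 was 2.97 ± 0.63 with an adjusted p of 0.228. Spp1, at 153 and 189 CPM in sham and 2174 to 10100 CPM at day 2, had a change of 5.01 ± 0.92 with an adjusted p of 0.228, and was called by DESeq2. No gene was called by edgeR without any 1 of the sham or day 2 libraries, or without day 14 replicate 1 or 3 (244 to 712 with an unadjusted p below 0.05).

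Whether the change from day 2 to day 14 differed between Mg3 and the other microglia was tested as an interaction of subtype and day, with the library as a block. The values are the log2 change of Mg3 minus that of all other microglia. Cells were coded from the same expression values, so these p-values are not independent of the coding. Of 8920 genes tested, 146 had a higher value (1.64%) and 25 a lower one (0.28%), around a median of 0.33 over all genes. Without TMM scaling the median was -0.07 and the counts were 10 higher and 56 lower, so the split by direction depends on the scaling. The other microglia were mainly Mg4 and Mg5 at day 2 and Mg6, Mg1, Mg7 and Mg2 at day 14, so the difference includes a change in their makeup. Without day 14 replicate 1, day 2 replicate 4 or day 14 replicate 2, 17, 18 or 28 genes were called, and without day 2 replicate 1 it was 108.

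Of the 12 interferon-response genes 6 were called, all lower, with a list median of -1.28, and 11 of 12 were at an unadjusted p under 0.05, as were 1192 of all 8920 genes. Ifit3 in Mg3 averaged 796 CPM at day 2 and 171 CPM at day 14, while in the other microglia it averaged 45.0 and 50.1 CPM, a difference in change of -1.80 ± 0.31 (adjusted p = 1.42e-05). By library, its log2 ratio of Mg3 to the others was 4.24, 4.16 and 3.50 at day 2 and 1.63, 2.61, 0.90 and 2.25 at day 14. Every day 2 ratio was above every day 14 ratio. Ifit2 averaged 607 and 208 CPM in Mg3 and 34.0 and 63.9 CPM in the others, a difference of -1.73 ± 0.32 (adjusted p = 0.000118). Isg15 averaged 737 and 338 CPM against 117 and 188 CPM, a difference of -1.42 ± 0.28 (adjusted p = 0.000546). Usp18 (-1.80), which removes ISG15 from proteins, Oasl2 (-1.41) and Irf7 (-1.25) were also called. Outside the list the lowest values were Ifit1 (-2.47), Mx1 (-2.44), the RNA helicase Ddx60 (-2.18), Ifit3b (-1.99) and Gbp7 (-1.86). All 11 stayed below 0 and called without TMM scaling. Without day 2 replicate 4 Ifit2, Ifit3, Usp18 and Gbp7 were still called and the other 7 were not, and without day 14 replicate 1 Ddx60, Gbp7, Ifit3b, Irf7 and Oasl2 lost the call. Ifit3b, Irf7 and Oasl2 also lost it without day 14 replicate 2 or 3 and with no filter on low counts. Ddx60, Ifit3b, Irf7 and Oasl2 lost it without day 2 replicate 1, and Ddx60, Ifit3b and Gbp7 without day 2 replicate 2. Without the deepest 5% of microglia the value of Ifit3 was -0.93 (adjusted p = 0.23) and Ifit1, Ifit3b and Oasl2 were not called either. Ifit3 and Ifit3b are close copies, so their separate values are uncertain.

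**Figure D5:**
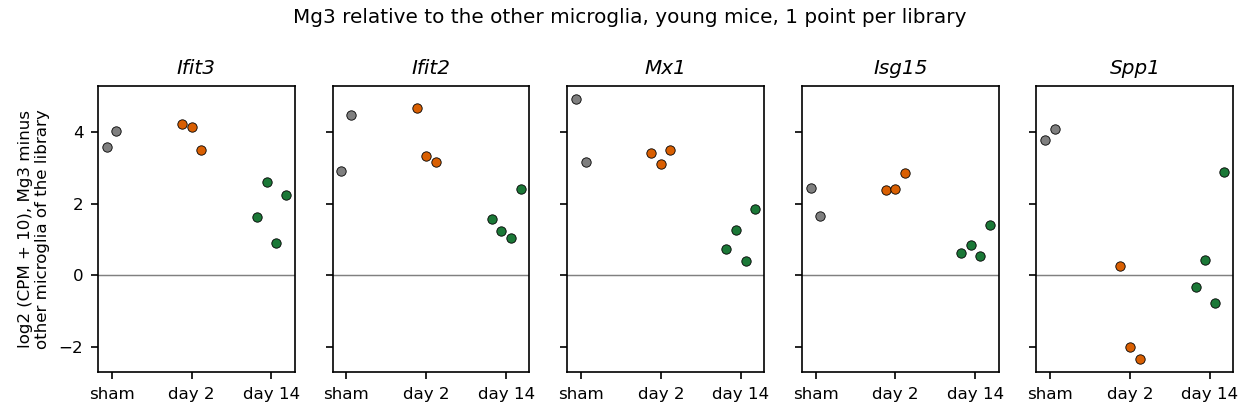
Log2 ratio of Mg3 to the other microglia of the same library (CPM plus 10) for Ifit3, Ifit2, Mx1, Isg15 and Spp1 in young sham, day 2 and day 14. For Ifit3 the day 2 ratios are 3.50 to 4.24 and the day 14 ratios 0.90 to 2.61, and Spp1 runs from 4.11 in sham to -2.35 at day 2.

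The upstream 250 bases of 3 of these genes are shown because they hold the core of the interferon-stimulated response element, the DNA element through which type I interferon acts on its target genes. Sequences are from RefSeq (GRCm38.p6), 5′ to 3′ on the gene's strand, and end at the base before the gene's start. Capitals mark each match to GAAANNGAAA or its other strand, TTTCNNTTTC. Ifit3 (chr19:34583279-34583528, plus strand) has 2 matches that begin 156 and 122 bases before the start. Ifit1 (chr19:34640639-34640888, plus strand) has 2, at 104 and 85 bases. Isg15 (chr4:156200819-156201068, minus strand) has 3, each overlapping the next, the first at 78 bases.
Ifit3: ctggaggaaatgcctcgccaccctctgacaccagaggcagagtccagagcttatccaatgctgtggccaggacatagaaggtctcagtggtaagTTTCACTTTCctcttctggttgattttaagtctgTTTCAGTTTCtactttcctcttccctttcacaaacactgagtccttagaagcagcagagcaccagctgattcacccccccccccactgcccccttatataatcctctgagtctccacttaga
Ifit1: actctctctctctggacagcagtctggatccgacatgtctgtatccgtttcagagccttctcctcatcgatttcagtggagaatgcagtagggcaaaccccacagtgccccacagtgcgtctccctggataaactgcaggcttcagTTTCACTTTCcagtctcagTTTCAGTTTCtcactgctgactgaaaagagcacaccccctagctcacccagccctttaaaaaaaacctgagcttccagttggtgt
Isg15: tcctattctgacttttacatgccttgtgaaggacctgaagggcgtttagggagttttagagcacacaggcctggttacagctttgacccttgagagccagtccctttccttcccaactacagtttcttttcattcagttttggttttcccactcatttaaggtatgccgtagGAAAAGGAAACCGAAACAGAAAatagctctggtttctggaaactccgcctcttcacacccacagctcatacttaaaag
Of the 25 genes with a lower value 22 had a sequence in the table, and 10 of those held the motif (45.5%). Of the 146 with a higher value 106 had one, and 5 held it (4.72%). Among all genes tested the motif was in 226 of 6200 (3.65%), and among all promoters of that length in 936 of 27025 (3.46%). Ifit2 and Irf7 were among the lower genes with no match in this window. Of the interferon-response list 8 of 12 had a sequence, and Bst2, Ifit3, Isg15 and Stat2 held a match. A match is a run of letters, and no binding was measured here.

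Among the genes with a higher value, Spp1 averaged 5131 CPM at day 2 and 6921 CPM at day 14 in Mg3, and 11625 and 8455 CPM in the other microglia. The difference in change was 2.30 ± 0.28 (adjusted p = 2.03e-12 by edgeR), and DESeq2 gave an adjusted p of 0.117. Its log2 ratios of Mg3 to the others overlapped between the days, at 0.27, -2.02 and -2.35 at day 2 and -0.32, 0.42, -0.78 and 2.89 at day 14. Fabp5 (2.65 ± 0.56) and Lgals3, the galectin of phagocytic cells (1.64 ± 0.33), were called too, and both lost the call without day 2 replicate 4. DESeq2 did not call Lgals3, Irf7 or Oasl2, and Lgals3 was also lost without day 14 replicate 2. The largest values by rule were Cox6c2 (3.81), Smc3 (2.37), Ell2 (2.28), Hdgf (2.16) and Fam96a (1.98). Smc3, a cohesin subunit, averaged 18.6 and 62.3 CPM in Mg3 and 129 and 70.4 CPM in the others. Of 10 listed genes of glycolysis and hypoxia 3 were called, Gapdh (1.18), Ldha (1.09) and Pkm (1.03), with a list median of 1.11. Gapdh averaged 287 and 321 CPM in Mg3 and 506 and 319 CPM in the others. Gapdh, Ldha, Pkm, Cox6c2, Smc3, Ell2 and Hdgf lost the call without TMM scaling. Fam96a lost it without day 2 replicate 4, and Cox6c2, Smc3, Ell2 and Hdgf lost it without day 14 replicate 1 or 2, among other libraries. Gapdh, Ldha and Pkm also lost it with counts rounded up and without replicate 1 or 4 of day 2 or replicate 1 or 2 of day 14. Apoe had a value of -0.54 with an adjusted p of 0.396, and was called without TMM scaling (-1.01) and without day 14 replicate 4 (-0.83).

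In aged mice the Mg3 values at day 2 could be tested against young mice in 2 aged libraries, 1 male and 1 female. Of 1416 genes present in both tables and tested, 3 were called, or 0.212%, all higher in the aged libraries. Age cannot be told apart here from the gene table, and it is also partly joined with sex and mitochondrial set. The 2 aged libraries had median mitochondrial shares of 2.91% and 1.11%, the young ones 0.328%, 0.294% and 2.32%. T, NK and B cell genes summed to 24.6 to 65.9 CPM in aged Mg3 and 0 to 82.9 CPM in young Mg3. Ccl5, a chemokine for T cells and monocytes, was 932 and 462 CPM in aged Mg3 and 105, 28.5 and 115 CPM in young Mg3, a log2 difference of 2.79 ± 0.53 (adjusted p = 0.0264). Clec7a was 445 and 673 CPM against 86.7, 110 and 121 CPM, a difference of 2.21 ± 0.43 (adjusted p = 0.0264). The third was the unnamed locus CT010467.1 (4.18 ± 0.67, adjusted p = 0.00687). It and Ccl5 are outside the rule for named genes and were chosen after their values were seen. DESeq2 called none of the 1416 genes (33 at an unadjusted p under 0.05), and edgeR called none without the aged female library, with only the compared groups, or with libraries of at least 10 cells (37, 52 and 16). With sex as a covariate 2 were called, and Clec7a was not.

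The interferon-response list had a median log2 difference of -0.14 between the ages, and edgeR called none of its 12 genes (1 had an unadjusted p below 0.05, and DESeq2 called 0). Over all 1416 genes tested 70 had such a p by edgeR. Ifit3 was 405 and 741 CPM and Isg15 502 and 888 CPM in aged Mg3 at day 2. At day 14 the single aged library had Apoe at 37220 CPM, below the 4 young values, and Cst7 at 2171, Clec7a at 1400 and H2-D1 at 4745 CPM. For Spp1 it had 1081 CPM and for Gpnmb 30.1 CPM, each below the lowest young day 14 value, while Ifit3 at 140 CPM was within the young range. In the aged sham library with 144 Mg3 cells Apoe was 28840 CPM and Clec7a 1770 CPM, above both young sham values for each gene. With 1 library in each of these 2 groups, the differences have no replicate check.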

How the data were processed

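Single-cell transcripts were measured by Drop-seq in 18 brain libraries. The deposited tables hold estimated counts per gene and cell, made by the authors, which are not whole numbers. The authors' metadata add counts of genes per cell, the percent of mitochondrial counts, and cell codes at 2 levels. Per the submitters' processing notes Seurat and the build mm10 were used. The aligner, the cell filters, the strand setting and the step that made counts fractional are not given in the sources used here. The members and gene lists were chosen with earlier results of these data known.

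Every deposited cell was kept, and no doublet caller was run. Counts were summed per library over Mg3 and over all other microglia, rounded, and scaled to a common total (CPM). Library totals ran from 819438 to 5855047 counts. Profiles are the log2 ratio of CPM plus 10 within a library. Libraries with at least 20 Mg3 cells (and 20 other microglia) were used. Tests used edgeR 4.0.16 (R 4.3.3) with glmQLFit, TMM scaling and filterByExpr, two-sided, with Benjamini-Hochberg adjustment over all genes tested. The script was tested on simulated data. The 3 young groups shared a fit, the age fit held sham and stroke libraries at day 2, and the interaction held young stroke libraries. Sequences were matched to RefSeq by symbol.

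Named genes were the 10 highest and 10 lowest called (5 and 5 for the interaction, 20 and 10 for the profile) without overlap and at 20 CPM or more (50 for the profile). Left out of the naming were predicted, mitochondrial and ribosomal genes, globins, antibody and T cell receptor genes, and genes held at over 10 times the level by another class of at least 500 cells. The 3 marks, and members of lists that were called, were named besides. Other-cell marker lists give sums, and members are named only for the monocyte-derived list. Some listed items are not reported by name here. Alternatives were DESeq2 1.42.0, no filter, no TMM, only the groups compared, other minimums of cells, the deepest 5% of microglia left out, counts rounded up, the replicate number as a block, sex, mitochondrial set and each library left out. The mitochondrial set in the age fit was added after the data were seen.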

Additional observations from a re-analysis of the deposited data

Results flagged for a closer look

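Among 65 groups of 4 libraries examined for 1 library far from the others, 3 stood out, and chance gives about 1 in 20. In Mg3 of the young stroke libraries at day 14, Fabp5 was 336 CPM in replicate 3 against 246, 245 and 231 CPM, Nap1l4, a histone chaperone, was 166 CPM in replicate 4 against 80.0, 80.2 and 90.4 CPM, and Spp1 was 14000 CPM in replicate 3 against 4335, 5310 and 4082 CPM.

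For 22 of the named genes the change from day 2 to day 14 differed between Mg3 and the other microglia by edgeR's interaction test, in cells coded from the same expression values. Apart from the 3 marks, genes were named because they were among the 171 of 8920 called, so this number follows from the rule. Cox6c2, Smc3, Ell2, Hdgf, Gapdh, Ldha and Pkm lost the call without TMM scaling, and Spp1, Lgals3, Irf7 and Oasl2 lost it in DESeq2. The log2 difference was positive for Cox6c2 (3.81), Fabp5 (2.65), Smc3 (2.37), Spp1 (2.3), Ell2 (2.28), Hdgf (2.16), Fam96a (1.98), Lgals3 (1.64), Gapdh (1.18), Ldha (1.09) and Pkm (1.03). It was negative for Ifit1 (-2.47), Mx1 (-2.44), Ddx60 (-2.18), Ifit3b (-1.99), Gbp7 (-1.86), Usp18 (-1.8), Ifit3 (-1.8), Ifit2 (-1.73), Isg15 (-1.42), Oasl2 (-1.41) and Irf7 (-1.25).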

How the results depend on the processing

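The Mg3 share kept its order between young groups in every subset tried. With only cells of at least 800 counts the mean share was 1.23% in young sham, 7.28% in aged sham, 7.28% in aged stroke at day 2 and 79.4% in the aged day 14 library. With all deposited cells as the total the shares were 0.847% at young day 2, 24.4% at young day 14, 3.09%, 3.08% and 43.3% in the 3 aged groups. Leaving out 1 library gave 0.655% to 0.965% in young sham, 2.92% to 4.84% at young day 2, 67.3% to 73.0% at young day 14, 5.17% to 6.04% in aged sham and 10.6% to 12.5% at aged day 2. In the profile, the ratio of Cenpf was -2.92 with 1 added to CPM, and that of Nap1l4 was -0.68 without the deepest cells.

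For Mg3 at day 14 against day 2 (16 genes called), DESeq2 called 66, no TMM 34, and the mitochondrial set as a term 25. For day 14 against sham (8), DESeq2 called 59, no filter 35, no TMM 4, only the compared groups 2, and libraries of at least 10 Mg3 cells 45. For day 2 against sham (1), DESeq2 called 15, no filter 2, only the compared groups 2, at least 10 cells 0 and counts rounded up 0 (224 and 411 genes at an unadjusted p under 0.05). For aged against young (3), DESeq2 called 0, only the compared groups 0, at least 10 cells 0, no deepest cells 1 and the mitochondrial set 9. For the interaction (171), no filter gave 377, no TMM 66 and counts rounded up 87. Leaving out 1 library gave 0 to 13 calls for day 14 against day 2, 0 to 15 against sham, 0 to 1 for day 2 against sham, 0 to 10 for age and 17 to 226 for the interaction. A minimum of 50 Mg3 cells left fewer than 2 day 2 libraries and gave no value.

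In 2 uncalled results the sign turned, and 1 other came to 0.0. Apoe at day 2 against sham was 0.25 without young sham replicate 2, in a range of -0.96 to 0.25 over libraries left out. Gpnmb there was 0.0 without day 2 replicate 1, in a range of 0.0 to 5.68, and Apoe in aged against young mice was -0.15 with the replicate block. Same-numbered young libraries correlated from -0.05 to 0.545 in their deviations from group means, and differently numbered ones from -0.511 to 0.422. These ranges overlapped, so the numbers were not taken to pair them, although the highest value was of a same-numbered pair. With the replicate number as a block 40, 24, 2 and 0 genes were called for day 14 against day 2, day 14 against sham, day 2 against sham and age. The cause of these differences was not tested.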
